A study of Mus musculus with 89 samples.

Results

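Female BALB/c mice, 6 to 8 weeks old and sensitised with ovalbumin in alum, received copper oxide nanoparticles with an ammonium surface (CuO NH3) in PBS at 2.5 μg per mouse, and their lung RNA was compared with that of mice given PBS alone. The comparison held 3 CuO NH3 2.5 samples and 7 PBS-challenged control samples out of 89 samples in the series, picked by the labelled nanomaterial, dose and challenge. The dose was given by oropharyngeal aspiration, in which a drop placed in the throat is breathed in, on each of 4 consecutive days, and lung tissue was taken 24 h after the last administration, from lungs that had been lavaged first. Both groups were sensitised, so the controls are allergen-primed mice without an allergen challenge and not naive animals. The unit of the dose is written as μg per day in the sample descriptions and as μg per mouse and administration in the methods. The treatment text of the labels gives it as mg. Each sample pooled 2 RNA samples, with no RNA shared between pools, carried a Cy3 or a Cy5 label and filled 1 channel of an Agilent mouse array. The other groups used below were CuO NH3 at 10 μg (n = 4) and 40 μg (n = 3), unmodified CuO, carboxylated CuO COOH and pegylated CuO PEG at 2.5 μg (n = 3 each), and the ovalbumin-challenged groups with CuO NH3 2.5 (n = 3) and without nanomaterial (n = 8). The markers of lung epithelium matched the labelled tissue, with the surfactant gene Sftpc between 17.12 and 17.80 and the club cell gene Scgb1a1 between 17.10 and 17.81 in all 10 samples, on the log2 scale used here.

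Inhaled metal oxide particles meet macrophages and epithelial cells first. Activated macrophages and epithelium make CC chemokines that draw monocytes and CXC chemokines that draw neutrophils, and they make acute phase proteins, a class known best from the liver but also produced in the lung. Dissolved copper ions are bound by metallothioneins, small cysteine-rich proteins whose genes are switched on through metal response elements in their promoters.

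Exposure to CuO NH3 2.5 was followed mainly by higher expression. A gene was called when its adjusted p was under 0.05 and its log2 fold change beyond 0.58 in either direction, which held for 220 of 22851 genes, or 0.963% of those tested. Of these, 197 (0.862%) rose and 23 (0.101%) fell, so 89.5% of the calls were rises. At an unadjusted p below 0.05 there were 2749 genes. A log2 fold change above 1 was reached by 100 genes and one above 2 by 15, whereas 4 genes lay below -1 and 0 below -2. The standard error of the log2 fold change had a median of 0.16 over all genes. The 3 exposed samples lay above all 7 controls in 189 of the 197 genes that rose and below them in 15 of the 23 that fell, against 9.16% and 7.18% of all genes tested. Within each slide the exposed sample was also set against the mean of the controls there. It differed in the fitted direction on all 3 slides for 196 of the 197 rises and 20 of the 23 falls. These samples also gave the calls, so this is no separate check, and the share over all genes was not counted. Slides 5 and 6 held 1 PBS control each, with the other dye than the exposed sample. PBS controls 1, 2 and 3 lay on slides 1, 2 and 3, which held no exposed sample, and 83 genes were called without these controls. The count of calls rested on single samples, since it was 57 without exposed replicate 3, 69 without PBS control 5 and 92 without exposed replicate 1. It was 397 with dye, slide and array position as terms and 485 with the array as a random block. Centring each sample on its 75th percentile left 50 calls, 100% of them rises, with the median of all genes moved to -0.36. Under that centring the median of 5 of the 42 gene lists described here turned sign, falling below 0 for the inflammasome genes, the aryl hydrocarbon receptor targets and the platelet markers and rising above 0 for the alveolar type 2 and fibroblast markers.

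**Figure D1:**
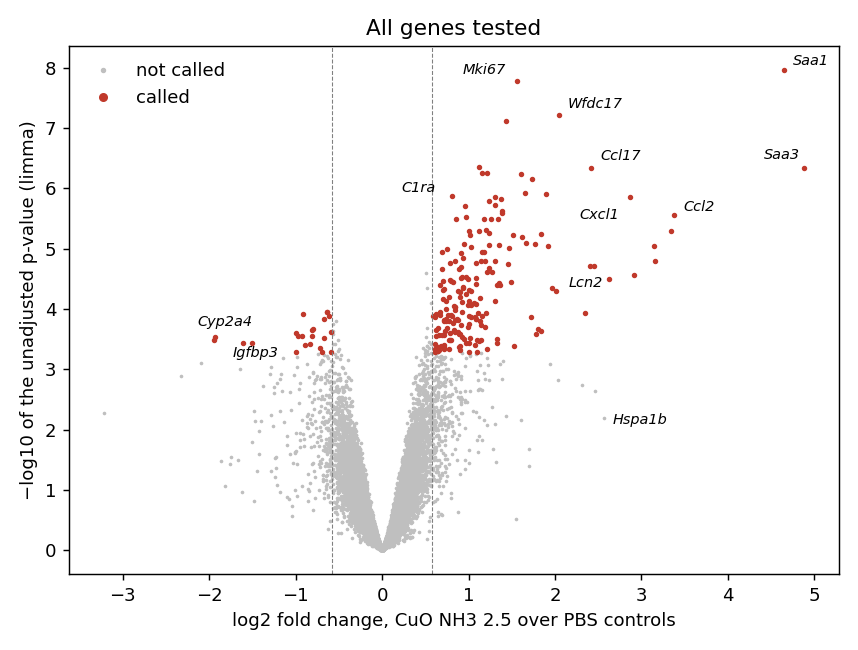
Log2 fold change of CuO NH3 2.5 over PBS controls (horizontal) against −log10 of the unadjusted limma p-value (vertical), with 1 point for each of 22851 genes. Called genes are red and dashed lines mark the fold change threshold of 0.58 in both directions. The 197 rises reach a log2 fold change of 4.87 (Saa3), while the 23 falls stop at -1.94 (the predicted gene Gm13293) and -1.93 (Cyp2a4). For Gm13293 the group means with dye, slide and array position removed differed by only -0.38.

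The levels of single samples given here are log2 normalised intensities from which dye, slide and array position were removed, and the log2 fold change comes from the fit with dye and array as terms, so it is not exactly the difference of the displayed levels. For the 220 called genes the displayed difference had the fitted sign in 220 and was at least 2/3 of the fitted value in 179. Its ratio to the fitted value had a median of 0.85 and a lowest value of 0.0005. Among the falls the displayed difference was only -0.0035 for Ap4e1 (fitted -1.50) and -0.0003 for Olfr250 (-0.60). For Tmed6 it was -0.10 (-0.97) and for Gm13293 -0.38 (-1.94). For Slc6a17 it was -0.09 (-0.64), and among the rises it was only 0.06 for Apon (0.61). The calls of these genes rest largely on the array terms. In each of the 10 samples 53.3% to 68.4% of the spots were well above background and 0 were saturated.

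The acute phase proteins held the largest rises. Saa3, a serum amyloid A made by macrophages and epithelium, stood at 15.82, 14.89 and 15.66 in exposed replicates 1, 2 and 3, against a lowest, median and highest control of 10.05, 11.28 and 12.43. All 3 exposed samples were above every control, and the lowest of them was replicate 2. The log2 fold change of Saa3 was 4.87 ± 0.70 (SE, adjusted p = 0.0013), a 29.3-fold rise, and the differences within the 3 slides were 3.94, 4.84 and 5.46. Saa1, a second serum amyloid A, was at 12.78, 11.92 and 12.66 against controls of 8.21, 8.53 and 9.44. It rose by 4.65 ± 0.54 (adjusted p = 0.00019), or 25.1-fold. Over 22 other settings the log2 fold change ran from 2.47 to 5.48 for Saa1 and from 3.91 to 5.69 for Saa3. Saa1, Saa2 and Saa3 are similar in sequence, and signal shared between their probes cannot be told apart here. Lcn2, the iron-scavenging protein lipocalin 2, was already bright in the controls at 11.57, 12.12 and 12.65 and was at 14.80, 14.66 and 14.60 after exposure. The groups did not overlap for Lcn2, which rose by 2.40 ± 0.45 (adjusted p = 0.0071).

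The plasma glycoproteins of the same class followed. Orm1, an orosomucoid, was at 10.02, 9.13 and 9.41 against 6.10, 6.73 and 7.41 in the lowest, median and highest control and rose by 3.16 ± 0.58 (adjusted p = 0.0065). Its neighbour Orm2 rose by 2.91 ± 0.56 (adjusted p = 0.0089), and the 2 orosomucoids are near-identical in sequence. Cp, ceruloplasmin, the copper-carrying ferroxidase of plasma, rose by 0.67 ± 0.15 (adjusted p = 0.023). Of the 18 acute phase genes measured, 7 rose and 0 fell, and 16 were above 0, with a median log2 fold change of 1.12 against -0.00 over all genes tested. Among those not called were Serpina3n at 1.37 ± 0.36 (adjusted p = 0.063) and the haem-binding Hpx at 1.19 ± 0.33 (adjusted p = 0.087). The fibrinogen chains Fga, Fgb and Fgg lay at -0.09, 0.12 and -0.21.

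**Figure D2:**
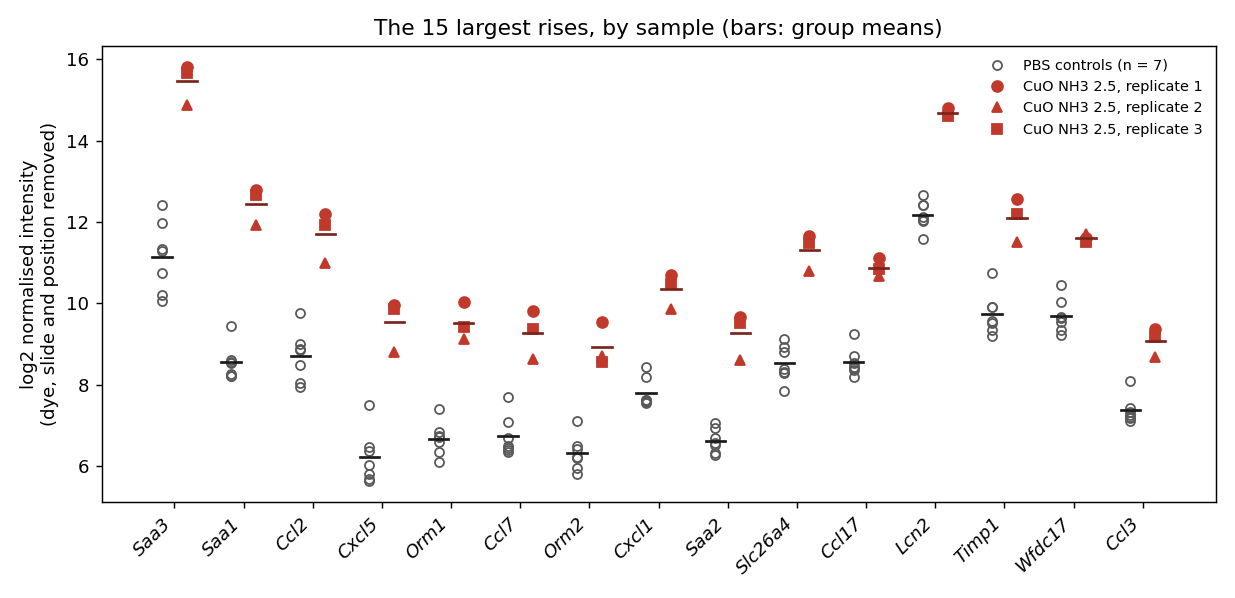
Log2 normalised intensity with dye, slide and array position removed (vertical) of the 15 largest rises (horizontal) in each PBS control (open circles, n = 7) and each CuO NH3 2.5 replicate (red, n = 3), with bars for group means. All exposed points lie above all control points of the same gene. Replicate 2 is the lowest exposed sample in 12 of the 15 genes and replicate 1 the highest in 14.

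Chemokines that attract monocytes were the second group of large rises. Ccl2, the main ligand of the monocyte receptor CCR2, was at 12.19, 11.00 and 11.92 in the exposed samples and at 7.96, 8.85 and 9.76 in the lowest, median and highest control. Even the lowest exposed sample, replicate 2, was above the highest control. Ccl2 rose by 3.38 ± 0.55 (adjusted p = 0.0027), or 10.4-fold, with differences of 2.88, 3.04 and 3.87 within the slides. Ccl7, a second CCR2 ligand, was at 9.81, 8.63 and 9.36 against 6.34, 6.49 and 7.69 and rose by 3.14 ± 0.55 (adjusted p = 0.0046). The CCR2 ligand Ccl12 rose by 1.80 ± 0.41 (adjusted p = 0.031) and Ccl3, a macrophage inflammatory protein, by 2.01 ± 0.41 (adjusted p = 0.012). Of 9 genes in this list 4 rose and 0 fell, with a median of 2.01. Ccl8 at 2.31 ± 0.66 (adjusted p = 0.096) and Ccl4 at 2.04 ± 0.57 (adjusted p = 0.087) did not pass, and the receptor Ccr2 was at 0.70 ± 0.24 (adjusted p = 0.20). Ccl11, the eosinophil chemokine eotaxin, was at 0.35 ± 0.29 (adjusted p = 0.71).

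Of 8 neutrophil chemokines and growth factors 3 rose and 0 fell, with a median of 1.00. Cxcl1, a ligand of the neutrophil receptor CXCR2, was at 10.70, 9.87 and 10.48 against controls of 7.56, 7.63 and 8.42. It rose by 2.87 ± 0.45 (adjusted p = 0.002), and the groups were separate. Cxcl5, another CXCR2 ligand, known from alveolar epithelium, was at 9.95, 8.80 and 9.87 against 5.63, 6.03 and 7.51, with only 4 of the 7 controls well above background, and rose by 3.34 ± 0.57 (adjusted p = 0.0036). Csf2, encoding the growth factor GM-CSF, was at 8.86, 8.66 and 8.83 against 7.37, 7.55 and 7.76 and rose by 1.00 ± 0.22 (adjusted p = 0.027). Cxcl2 at 0.39 ± 0.29 (adjusted p = 0.66), Csf3 at 0.10 ± 0.15 (adjusted p = 0.86) and Il17a at 0.14 ± 0.31 (adjusted p = 0.92) did not pass. The markers of neutrophils themselves gave 0 calls among 11 genes, with S100a8 at 0.18 ± 0.57 and S100a9 at 0.05 ± 0.57, and the summed linear intensity of that list ran from 70702 to 95930 in the exposed samples and from 71927 to 94252 in the controls.

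The promoters of Cxcl1 and of the metallothioneins Mt1 and Mt2 are shown because they carry matches to the motif of a factor known to act on these genes. Cxcl1 rose with other chemokines, whereas Mt1, Mt2 and Steap4 were the only calls among 14 copper and metal genes. The windows of 300 bases around the start come from RefSeq, build GRCm38.p6, and capitals mark matches on either strand. For Cxcl1, at chr5:90890995-90891294 on the plus strand, they mark the NF-kappaB motif, searched as GGG, any 2 bases and then TTTCC, found 2 times here and in 1.61% of 27025 promoters. For Mt1, at chr8:94178839-94179138, and Mt2, at chr8:94172368-94172667, both on the plus strand, they mark the metal response element TGCACNC or TGCGCNC, found 3 and 4 times here and in 25.3% of promoters.
Cxcl1: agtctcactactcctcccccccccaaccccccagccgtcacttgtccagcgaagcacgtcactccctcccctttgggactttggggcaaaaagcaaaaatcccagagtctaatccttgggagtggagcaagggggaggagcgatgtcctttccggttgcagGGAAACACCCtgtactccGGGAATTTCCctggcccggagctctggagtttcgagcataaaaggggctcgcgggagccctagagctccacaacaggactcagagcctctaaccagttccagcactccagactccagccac
Mt1: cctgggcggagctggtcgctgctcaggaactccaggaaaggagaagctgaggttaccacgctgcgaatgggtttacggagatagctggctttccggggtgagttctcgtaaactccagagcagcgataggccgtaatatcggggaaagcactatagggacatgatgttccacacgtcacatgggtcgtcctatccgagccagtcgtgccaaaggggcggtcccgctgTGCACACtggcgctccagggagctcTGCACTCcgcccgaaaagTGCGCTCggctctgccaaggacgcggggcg
Mt2: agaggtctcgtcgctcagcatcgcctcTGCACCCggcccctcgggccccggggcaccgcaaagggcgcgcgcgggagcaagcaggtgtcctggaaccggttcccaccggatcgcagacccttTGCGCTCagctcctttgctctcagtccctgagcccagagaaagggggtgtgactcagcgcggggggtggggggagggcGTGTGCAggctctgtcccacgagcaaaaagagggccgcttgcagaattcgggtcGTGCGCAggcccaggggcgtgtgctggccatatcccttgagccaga

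These matches are a description of letters in the windows. The metal motif was present in 7 of the 12 copper and metal genes with a promoter in the set (58.3%), in 8 of the 17 mitotic genes (47.1%) and in 34.6% of the 162 rising genes that had one. The NF-kappaB motif was present in 4.32% of those 162 and in 1 of the 4 called chemokine genes with a promoter, which was Cxcl1 itself.

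The metallothioneins rose, but the exposed samples and the controls overlapped. Mt2 was at 12.87, 12.00 and 12.82 against 11.24, 11.53 and 12.14, so that replicate 2 lay within the control range. Its rise was 1.46 ± 0.27 (adjusted p = 0.0068). Mt1 was at 10.45, 10.22 and 10.79 against 9.76, 10.04 and 10.45, where replicate 2 again lay among the controls. Mt1 rose by 0.73 ± 0.17 (adjusted p = 0.032), with differences of only 0.21, 0.33 and 0.69 within the slides. Steap4, a metalloreductase that reduces iron and copper, was at 8.64, 8.22 and 8.60, above all controls at 6.76, 6.94 and 7.28, and rose by 1.62 ± 0.28 (adjusted p = 0.0039). These were the 3 calls among 14 copper and metal genes, whose median was 0.11. The copper importer Slc31a1 at 0.17 ± 0.12, the exporting ATPase Atp7a at -0.18 ± 0.12, the chaperone Atox1 at 0.34 ± 0.15 and the zinc exporter Slc30a1 at -0.31 ± 0.14 had adjusted p-values of 0.62, 0.60, 0.34 and 0.38.

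Among 16 antioxidant genes of the Nrf2 pathway 2 rose, with a list median of 0.21. Gclc, the catalytic subunit of the enzyme that begins glutathione synthesis, was at 12.00, 11.86 and 11.98 against 11.10, 11.30 and 11.44 and rose by 0.81 ± 0.18 (adjusted p = 0.023). Hmox1, haem oxygenase 1, was at 11.33, 10.71 and 11.22 against 8.15, 10.15 and 10.82, with replicate 2 inside the control range, and rose by 1.15 ± 0.27 (adjusted p = 0.038). The regulatory subunit Gclm at 0.06 ± 0.14, the quinone reductase Nqo1 at 0.13 ± 0.20 and Srxn1 at 0.12 ± 0.17 had adjusted p-values of 0.92, 0.87 and 0.86. Hmox1 was also the single call among 9 iron and haem genes (median 0.37).

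The heat shock proteins gave 0 calls of 9, although all 9 were above 0 and their median was 0.74. Hspa1a, an inducible HSP70, was at 12.86, 12.54 and 12.28 against 9.38, 9.81 and 11.37 in the lowest, median and highest control. The groups did not overlap, and the log2 fold change was 2.47 ± 0.72 with an adjusted p of 0.11. Its near-identical copy Hspa1b was at 2.56 ± 0.86 (adjusted p = 0.18). The 10 p53 target genes (median 0.16), the 6 aryl hydrocarbon receptor targets (median 0.04), the 12 cholesterol genes (median 0.20) and the 13 interferon-induced genes (median 0.04) also gave 0 calls, with the interferon-induced Cxcl10 at 1.70 ± 0.79 (adjusted p = 0.39).

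Genes of cell division rose together, with 13 of 22 called, 22 of 22 above 0 and a median of 1.04. Mki67, the proliferation marker Ki-67, was at 10.23, 10.71 and 10.62 against controls of 8.74, 8.97 and 9.63. It rose by 1.56 ± 0.18 (adjusted p = 0.00019), or 2.94-fold, and the differences within the slides were 0.91, 1.97 and 1.65. Top2a, topoisomerase II alpha, was at 8.54, 8.81 and 8.87 against 7.18, 7.34 and 7.81 and rose by 1.43 ± 0.19 (adjusted p = 0.00044). Rrm2, which makes deoxynucleotides for DNA synthesis, rose by 1.38 ± 0.22 (adjusted p = 0.002) and the spindle kinase Aurka by 1.30 ± 0.20 (adjusted p = 0.002). In all 13 of the called genes replicate 1 was the lowest of the exposed samples, whereas replicate 1 was the highest in 14 of the 15 largest rises. The spindle checkpoint kinases Bub1 at 0.78 ± 0.22 and Bub1b at 0.52 ± 0.19 had adjusted p-values of 0.088 and 0.23.

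The promoter of Ccnb2, cyclin B2, which rose by 1.18 ± 0.21 (adjusted p = 0.0052), is shown for the cell cycle homology region TTTGAA, through which repressor complexes are known to hold mitotic genes silent in resting cells. It lies at chr9:70421505-70421804 on the minus strand, with 2 matches in capitals.
Ccnb2: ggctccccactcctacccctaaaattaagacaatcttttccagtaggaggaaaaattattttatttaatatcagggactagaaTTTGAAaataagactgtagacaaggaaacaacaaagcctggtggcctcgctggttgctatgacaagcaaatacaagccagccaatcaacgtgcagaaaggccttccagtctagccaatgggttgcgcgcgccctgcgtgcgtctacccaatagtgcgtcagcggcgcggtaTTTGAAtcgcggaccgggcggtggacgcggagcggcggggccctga

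The motif was found in 11 of the 17 mitotic genes with a promoter (64.7%), in 51 of the 162 rising genes with one (31.5%) and in 18.3% of all promoters.

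Genes of macrophages and of the tissue matrix followed. Cd14, the co-receptor for endotoxin, was at 11.50, 11.33 and 11.69 against 9.73, 9.95 and 10.23 and rose by 1.66 ± 0.25 (adjusted p = 0.002). Ccl17, a ligand of CCR4 on T helper 2 cells, was at 11.11, 10.68 and 10.84 against 8.19, 8.42 and 9.26 and rose by 2.42 ± 0.35 (adjusted p = 0.0013), whereas Ccl22, the other CCR4 ligand, was at -0.26 ± 0.22 (adjusted p = 0.71). Both groups of values were separate for Cd14 and for Ccl17. Trem2, a lipid receptor of macrophages, rose by 1.14 ± 0.26 (adjusted p = 0.027) and Wfdc17, a secreted protein of macrophages, by 2.04 ± 0.26 (adjusted p = 0.00044). Retnla, the resistin-like protein of alternatively activated macrophages, was at 15.24, 15.35 and 15.49, above all controls at 12.80, 13.12 and 14.06, with 1.94 ± 0.51 (adjusted p = 0.063), and Arg1 was at 0.79 ± 0.52 (adjusted p = 0.60). In the list of 10 alternatively activated macrophage genes 2 rose (median 0.68). Among 10 type 2 cytokine and airway allergy genes Ccl17 was the single call (median 0.51), with Il4, Il5 and Il13 at -0.29, -0.10 and 0.24.

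Timp1, an inhibitor of matrix metalloproteinases, was at 12.56, 11.51 and 12.19 against 9.19, 9.56 and 10.75 and rose by 2.34 ± 0.51 (adjusted p = 0.022). Spp1, osteopontin, was at 12.15, 11.95 and 12.13 against 10.09, 10.61 and 11.24 and rose by 1.66 ± 0.29 (adjusted p = 0.0046). Neither gene overlapped between the groups, and they were the 2 calls among 12 matrix genes (median 0.45). The collagen genes Col1a1 and Col3a1 were at 0.49 ± 0.29 and 0.68 ± 0.22 (adjusted p = 0.53 and 0.15). C3, the central complement component, was at 15.40, 15.64 and 15.61, above controls of 14.15, 14.43 and 14.67, and rose by 1.20 ± 0.26 (adjusted p = 0.022). With C1qb, a chain of the first complement component at 1.22 ± 0.30 (adjusted p = 0.046), it made 2 calls among 12 complement genes (median 0.48). Of 15 inflammatory cytokine genes only Il1r2, the decoy receptor of interleukin 1, was called, at 1.53 ± 0.37 (adjusted p = 0.043), and the list median was 0.64. Tnf, Il1b and Il6 stood at 0.92 ± 0.30, 1.01 ± 0.41 and 1.18 ± 0.32, with adjusted p-values of 0.16, 0.31 and 0.077, and the 7 inflammasome genes gave 0 calls (median 0.14).

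Slc26a4, the anion exchanger pendrin of airway epithelium, was at 11.64, 10.81 and 11.48 against 7.85, 8.39 and 9.13 and rose by 2.45 ± 0.46 (adjusted p = 0.0071). Sftpd, the surfactant collectin SP-D that binds microbes, was at 16.56, 16.50 and 16.48 against 15.89, 16.01 and 16.05 and rose by 0.93 ± 0.17 (adjusted p = 0.0063). It was the only call among 8 alveolar type 2 genes (median -0.17), in which Sftpc was at -0.40 ± 0.29 (adjusted p = 0.65). Mab21l3 was well above background in 3 of 3 exposed samples and in 0 of 7 controls. With the controls raised to at least the lowest level well above background in each, its exposed mean was 2.84-fold higher (log2 1.51). That value has no batch terms and is no lower bound on the fitted log2 fold change, which was 1.31. For Nags, also at 0 of 7 controls, the same step gave 1.36-fold (log2 0.44), against a fitted 0.66.

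The falls were fewer and smaller. Cyp2a4, a steroid hydroxylase of the cytochrome P450 family, was at 10.51, 10.28 and 10.48, below controls of 10.85, 11.89 and 12.46. It fell by 1.93 on the log2 scale (SE 0.45, adjusted p = 0.035), with differences of -1.15, -0.57 and -0.82 within the slides, and its near-identical paralogue Cyp2a5 was at -2.09 ± 0.54 (adjusted p = 0.061), so signal shared by the pair cannot be told apart. Igfbp3, a carrier of insulin-like growth factors, was at 12.13, 12.20 and 12.28 against 12.64, 13.01 and 13.47, and fell by 1.00 (SE 0.25, adjusted p = 0.049). The related Igfbp6 was at 13.55, 13.89 and 13.63 against 14.03, 14.27 and 14.29, and fell by 0.93 (SE 0.22, adjusted p = 0.035). For both carriers all exposed samples lay below the lowest control. Pon1, a lactonase carried on high density lipoprotein, was at 9.17, 8.99 and 9.15 against 9.55, 10.02 and 10.31, and fell by 0.99 (SE 0.23, adjusted p = 0.033). The flavin monooxygenase Fmo1 (-0.84), the asialoglycoprotein receptor chain Asgr1 (-0.90), the secretoglobin Scgb1c1 (-0.81) and the semaphorin Sema3b (-0.81) also fell with separate groups. Smaller separate falls were those of Scml4 (-0.72), Chst3 (-0.69), Grtp1 (-0.67), Inpp5k (-0.64), Kcnu1 (-0.62, with 1 of 3 exposed samples well above background) and Gpcpd1 (-0.59).

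Prf1, the pore-forming perforin of cytotoxic cells, was at 7.21, 7.26 and 7.46 against 7.47, 7.70 and 8.03 and fell by 0.80 (SE 0.18, adjusted p = 0.031), with exposed replicate 3 close to the lowest control. Of the 7 other markers of NK cells 0 were called and 6 were below 0 (median -0.45). Their summed linear intensity ran from 3148 to 3792 in the exposed samples and from 4692 to 7116 in the controls, and the part of this in the fall of Prf1 was not tested. In bulk lung RNA, fewer cells of a type and less RNA per cell cannot be told apart.

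The marker lists of the remaining cell types gave 1 call, Cd14 among 12 genes of monocytes and interstitial macrophages (median 0.54, summed intensity 71613 to 81966 against 66466 to 86258). B and plasma cell genes had 0 calls of 10 and a median of -0.60, with Cd79b at -1.47 ± 0.50 (adjusted p = 0.19) and summed intensities of 3839 to 4813 in the exposed samples against 5230 to 10402. Of 12 alveolar macrophage genes 0 were called (median -0.38), with Ear1 at -1.21 ± 0.34 and Ear2 at -1.25 ± 0.37 (adjusted p = 0.091 and 0.11). For eosinophils 0 of 6 were called (median -0.30, summed intensity 866 to 907 against 990 to 1187). Also with 0 calls were the markers of neutrophils (11 genes, median 0.25), mast cells and basophils (7, -0.16), dendritic cells (8, -0.12), T cells (11, -0.14), alveolar type 1 cells (7, -0.40), club cells (7, -0.42), goblet cells (9, 0.68), ciliated cells (8, 0.16) and endothelium (10, -0.41). The same held for fibroblasts (8, -0.03), smooth muscle (7, -0.09), mesothelium (5, -0.09), erythroid cells (7, -0.20), platelets (7, 0.28), cardiac and skeletal muscle (10, -0.85), adipocytes (8, -0.74) and thymus and lymph node (8, -0.22). Muscle genes varied most among the controls, with summed intensities of 6030 to 32894 against 6478 to 11043 in the exposed samples. Of 15 circadian clock genes the single call was the repressor Nfil3, which rose by 0.93 ± 0.20 (adjusted p = 0.022), and the list median was -0.23.

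**Figure D3:**
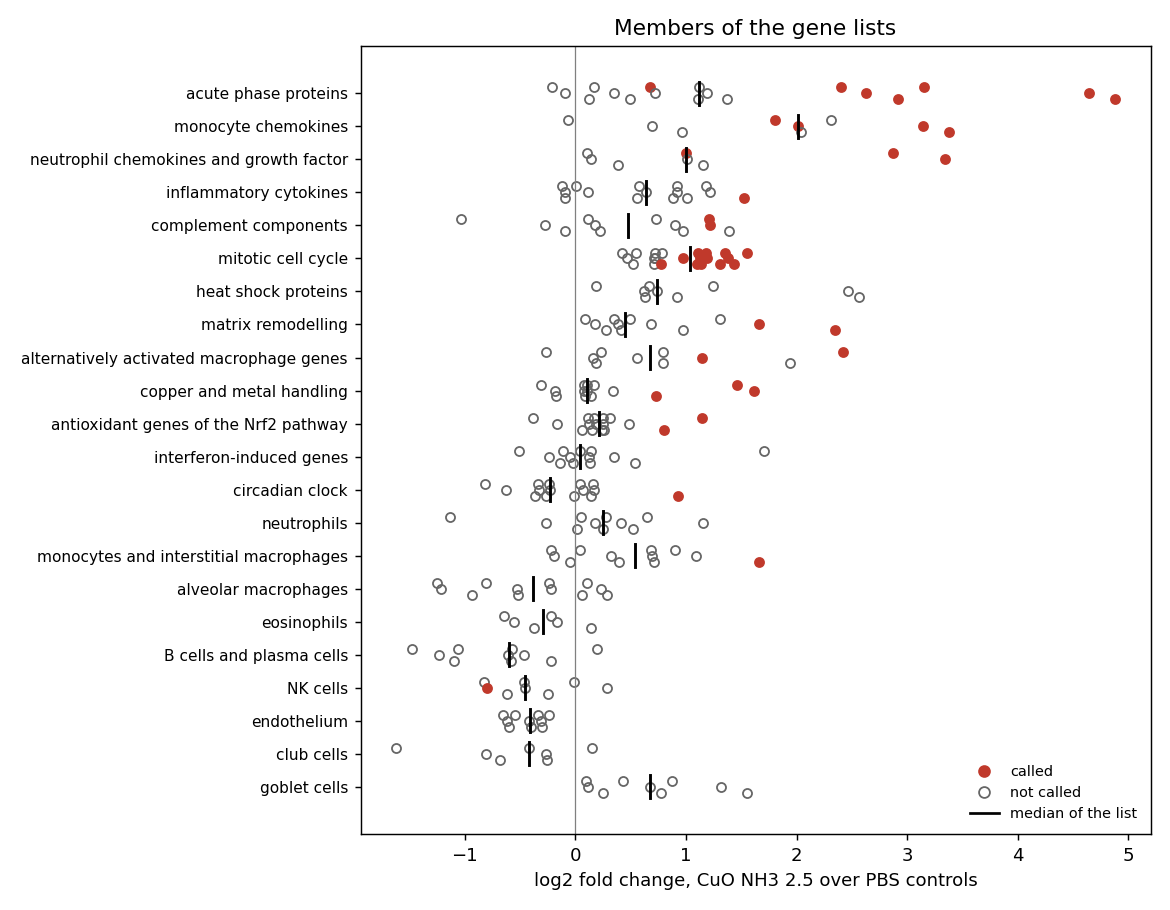
Log2 fold change of CuO NH3 2.5 over PBS controls (horizontal) of each measured gene in 22 of the gene lists (vertical), with called genes filled, others open and a bar at each list's median. Filled points are concentrated in the acute phase, chemokine and mitotic lists, and the NK cell list holds the single filled point below 0, Prf1.

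The question of dose was addressed by setting CuO NH3 10 and CuO NH3 40 against CuO NH3 2.5. Against the same PBS controls the doses gave 220 (0.963%), 760 (3.33%) and 3024 (13.2%) called genes at 2.5, 10 and 40 μg, and since they share these controls the values are placed side by side only. Saa3 had log2 fold changes over the controls of 4.87, 4.54 and 4.52 at the 3 doses and Lcn2 of 2.40, 2.43 and 2.48. Mki67 had 1.56, 2.08 and 2.82, Timp1 2.34, 3.26 and 4.48, Mt2 1.46, 2.37 and 3.21, and Cyp2a4 -1.93, -3.26 and -3.70.

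The direct contrast of 40 with 2.5 μg called 1642 genes (7.19%), 903 higher (3.95%) and 739 lower (3.23%) at 40 μg, and 126 of the 220 genes were among them, 111 of these higher. Replicate 3 of both doses shared an array, and without either of these samples the count was 722. The mitotic list was called higher in full, 22 of 22 with a median of 1.42, where Mki67 differed by 1.26 ± 0.16. In the matrix list 11 of 12 were higher (median 1.55), with Timp1 at 2.13 ± 0.44 (adjusted p = 0.0021) and Spp1 at 2.77 ± 0.25. Mt2 was higher by 1.75 ± 0.24, Hmox1 by 1.47 ± 0.24 and Arg1 by 3.79. The acute phase list had 3 calls of 18 (median 0.21), and for Saa3 the difference was -0.36 with a 95% confidence interval of -1.63 to 0.92. For Cxcl1 it was 0.06 (-0.75 to 0.86), and the interval of Saa3 is the wider one. Csf2 ran the other way and was lower at 40 μg, with a difference of -1.02 ± 0.20 (adjusted p = 0.0011). Igfbp3, at -2.48 ± 0.22, and Cyp2a4, at -1.77 ± 0.40 (adjusted p = 0.0038), were lower still at the higher dose. Between 10 and 2.5 μg limma called 0 genes, with 1374 at an unadjusted p below 0.05, but 74 with dye, slide and array position as terms and 43 with the array as a random block. There Spp1 differed by 1.73 (95% confidence interval 1.11 to 2.35, adjusted p = 0.16) and Mki67 by 0.52 (0.13 to 0.92, adjusted p = 0.68).

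**Figure D4:**
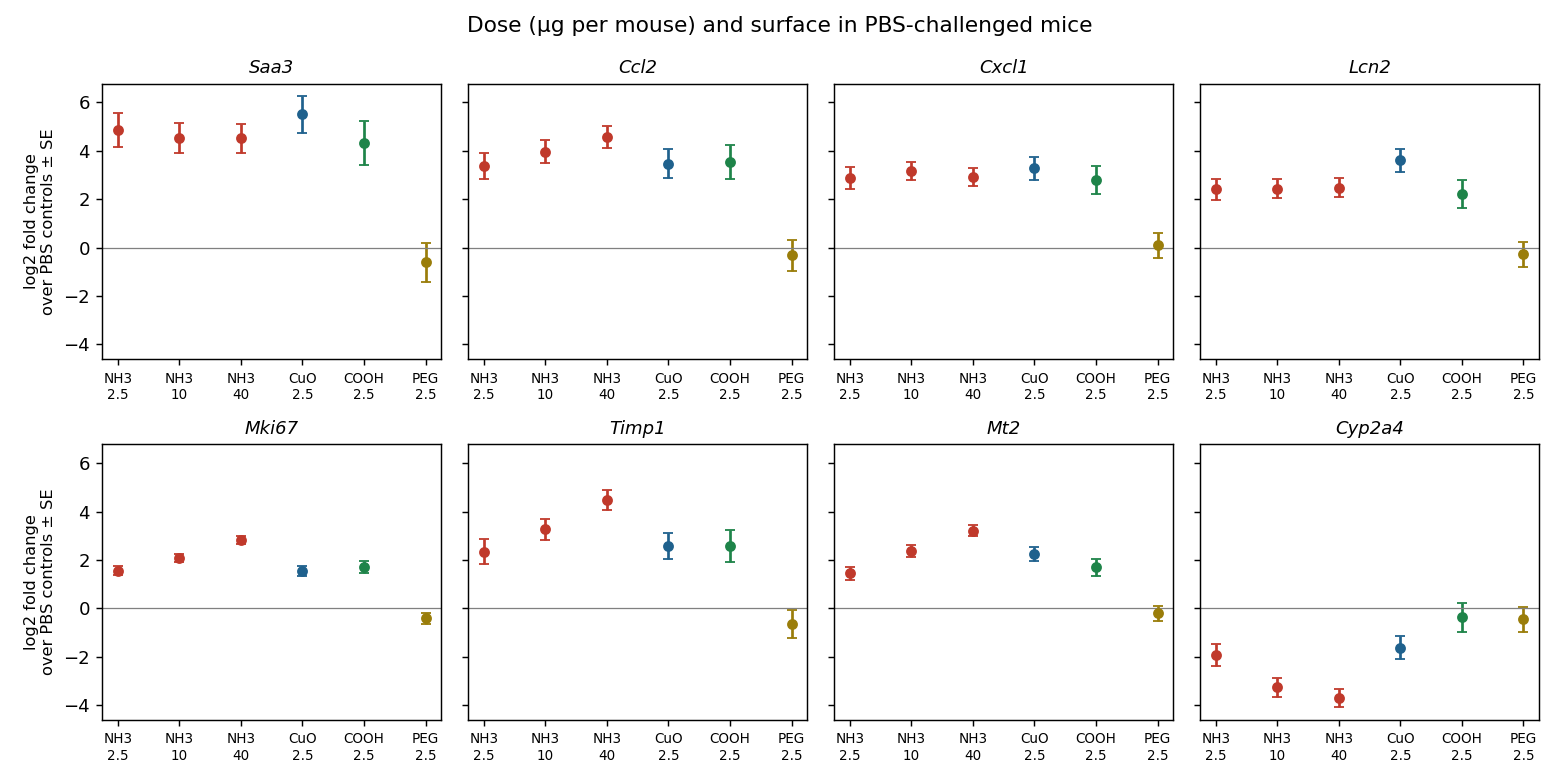
Log2 fold change over the shared PBS controls ± SE (vertical) of 8 genes at 3 doses of CuO NH3 and for CuO, CuO COOH and CuO PEG at 2.5 μg (horizontal), from the fit with dye and array as terms. From 2.5 to 40 μg of CuO NH3, Saa3 goes from 4.87 to 4.52 and Lcn2 from 2.40 to 2.48, Timp1 goes from 2.34 to 4.48 and Mt2 from 1.46 to 3.21, and the CuO PEG values lie between -0.65 and 0.10.

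The 4 materials share the copper oxide core and differ in surface, which was unmodified (CuO), carboxylated (COOH), aminated (NH3) or coated with polyethylene glycol (PEG). They were dosed by the mass of the whole material, so the amount of copper given differed between them as well and was lowest for CuO PEG in the characterisation of the materials, and surface and copper amount cannot be told apart here. At 2.5 μg of material, 3 pairs with CuO NH3 were compared, each in a fit with dye, slide and array position as terms. Against CuO PEG limma called 420 genes (1.84%), 298 higher (1.3%) and 122 lower (0.534%) after CuO NH3. Of the 220 genes, 152 were called in this contrast, 146 of them higher. With dye and array as terms instead, 433 genes were called against CuO PEG, and only 194 of them were among the 420. Saa3 was higher after CuO NH3 than after CuO PEG by 4.55 ± 0.59 (adjusted p = 3.9e-07), Ccl2 by 2.81 ± 0.46, Cxcl1 by 2.66 ± 0.39 and Lcn2 by 2.82 ± 0.32. Mki67 was higher by 1.48 ± 0.18, Csf2 by 1.24 ± 0.16 and Mt2 by 1.17 ± 0.30 (adjusted p = 0.010), while Hmox1 at 1.16 ± 0.37 missed the threshold (adjusted p = 0.051). All 9 heat shock genes were higher than after CuO PEG (median 1.10), with Hspa1b at 3.87 ± 0.51. None was called against PBS, but that fit had array terms and fewer degrees of freedom (23.1 against 55.6 with limma's prior). The acute phase list had 13 of 18 genes higher and the mitotic list 16 of 22, and 6 of 10 B and plasma cell genes were lower (median -0.87). Against PBS, CuO PEG itself had list medians of -0.47 (heat shock), -0.24 (acute phase), -0.42 (mitotic) and 0.31 (B and plasma cells), with 0 calls. The part of each difference that lay on the CuO PEG side was not tested.

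Against unmodified CuO and against CuO COOH limma called 0 genes each, with 1154 and 1078 genes at an unadjusted p below 0.05. The counts turned on the batch terms, since with the array as a random block they were 791 and 1027, against 395 for CuO PEG. No slide held both CuO NH3 2.5 and either of these materials, so both contrasts rest on the slide terms. With the p-values of all 3 pairs adjusted together, 2, 9 and 361 genes were called against CuO, CuO COOH and CuO PEG, and the 2 against CuO were Mepe (-0.62) and Olfr740 (0.63), named here because of the small count. The intervals of the difference show what remains possible. For CuO the 95% interval of the difference lay within 1 on either side of 0 for 197 of the 220 genes. Saa3 differed by 0.06 (-1.47 to 1.59), Ccl2 by 0.08 (-1.10 to 1.27), Mki67 by -0.14 (-0.61 to 0.33), Mt2 by -0.72 (-1.49 to 0.05) and Hmox1 by -1.13 (-2.08 to -0.19, adjusted p = 0.94). For CuO COOH 166 of the 220 intervals lay within 1 of 0, and Saa3 at 2.38 (0.77 to 3.99), Ccl2 at 1.52 (0.27 to 2.76), Cxcl1 at 1.20 (0.14 to 2.27) and Cyp2a4 at -1.53 (-2.70 to -0.37) had intervals that left out 0, each with an adjusted p of 0.997. Side by side, and over shared controls, CuO, CuO COOH and CuO PEG gave 207 (0.906%), 82 (0.359%) and 0 (0%) called genes against PBS. These values come from the fit with dye and array as terms, and the batch terms mattered for CuO COOH, whose Saa3 value of 4.33 lay closer to the 4.87 of CuO NH3 than the direct difference of 2.38. The Saa3 values of CuO, CuO COOH and CuO PEG were 5.50, 4.33 and -0.61, and their Cyp2a4 values were -1.62, -0.37 and -0.46.

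The last comparison asked whether the response to CuO NH3 2.5 differed in mice challenged with ovalbumin, the allergen of this asthma model, through the difference between the 2 effects. That test called 6 genes (0.0263%), with 1801 at an unadjusted p below 0.05. All 6 were among the 197 genes that rose after PBS challenge, and their effect after ovalbumin was smaller, absent or below 0. For Saa1 the difference was -3.70 ± 0.59 (adjusted p = 0.014). Saa1 was already at 10.37 to 11.93 (median 11.35, n = 8) in ovalbumin-challenged mice without nanomaterial, and at 11.86, 12.33 and 12.02 with it. Ccl17, with a difference of -2.25 ± 0.38 (adjusted p = 0.019), was at 10.26 to 11.36 (median 10.93) with ovalbumin alone and at 10.64, 11.08 and 10.96 with both, values that overlap those after CuO NH3 2.5 alone. C1ra, a protease of the first complement component, with -0.95 ± 0.14 (adjusted p = 0.0046), was likewise high with ovalbumin alone, at 11.70 to 11.87.

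Csf2 and Vnn1 had another pattern. Csf2 differed by -1.50 ± 0.24 (adjusted p = 0.016) and was at 7.52 to 7.80 with ovalbumin alone and 7.49, 7.34 and 7.46 with both, near the PBS controls. Its values with both lay below every value with ovalbumin alone. Vnn1, the pantetheinase vanin 1, was at 9.18, 9.25 and 9.30 after CuO NH3 2.5, against 7.06, 7.28 and 7.36 in the lowest, median and highest control, and rose by 1.84 in PBS-challenged mice. It was at 7.43 to 7.75 with ovalbumin alone and 7.70, 7.22 and 7.78 with both, a difference between the effects of -2.05 ± 0.34 (adjusted p = 0.019). The unnamed transcript 5430437J10Rik differed by -1.11 ± 0.15 (adjusted p = 0.0027). In ovalbumin-challenged mice the nanomaterial itself gave 211 called genes (0.923%), 103 higher (0.451%) and 108 lower (0.473%). The 6 calls became 243 with dye, slide and array position as terms, 206 with the array as a random block, 0 without exposed replicate 1 and 2 without PBS control 3.

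**Figure D5:**
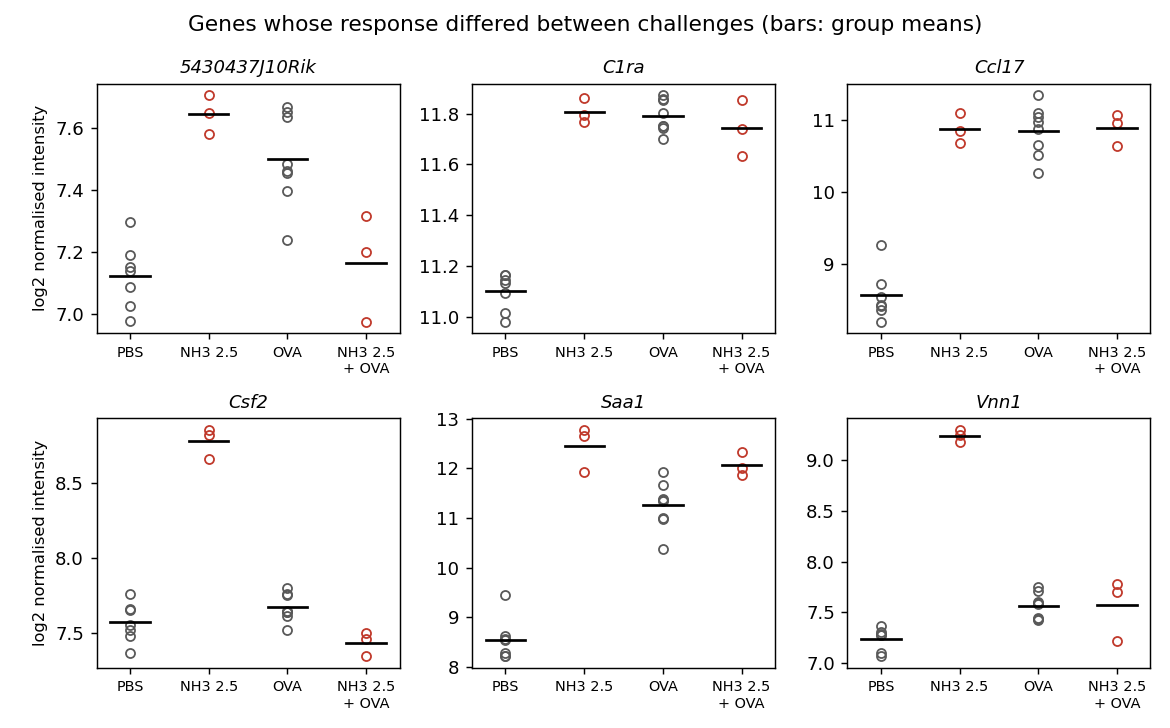
Log2 normalised intensity with dye, slide and array position removed (vertical, each panel on its own scale) of the 6 genes whose response differed between challenges, for PBS controls (n = 7), CuO NH3 2.5 (n = 3), ovalbumin (OVA, n = 8) and CuO NH3 2.5 with ovalbumin (n = 3), with bars for group means. Csf2 and Vnn1 are high in the CuO NH3 2.5 group alone, while Ccl17 and C1ra are at the same height in all groups other than the PBS controls.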

How the data were processed

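Lung RNA of 89 samples was measured on 46 Agilent 2-colour arrays on 6 slides, each sample being 1 channel. The authors deposited scanner files whose intensity columns hold the brightness of each spot (Feature Extraction 12.0.2.2 per the file headers). A deposited table of log2 values, per the methods quantile normalised and corrected for dye and array with ComBat, was used as an alternative. That table has a row for each array feature and was averaged per gene here.

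From the intensities, log2 median foreground values of 62976 features less 3671 control spots were quantile normalised with limma 3.58.1 in R 4.3.3 without background subtraction, and spots marked as outliers were then masked. Spots were averaged to 56605 probes, of which 32994 had a gene by RefSeq accession, and to 22911 genes. The 60 genes with a missing value were left out, and 22851 were tested. The precision is limited by the number of arrays. The median intensity of the 10 samples compared was 62.5 to 175.5, or 1.48 to 3.81 times the background. PBS controls 1, 2 and 3, on slides without an exposed sample, were the brightest at 175.5, 105 and 153, and the other samples reached at most 86.5.

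Groups followed the labels. The limma model held all 89 samples in 26 groups with dye and array as fixed terms (17 residual degrees of freedom), and contrasts between materials used dye, slide and array position. No exposed sample shared an array with a PBS control, so the contrast was linked through other groups. P-values were adjusted by Benjamini-Hochberg over all genes, and a call needed an adjusted p under 0.05 together with a log2 fold change beyond 0.58 in either direction. The test was checked on simulated data.

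Named genes were the 15 largest rises and falls that did not overlap between groups, without predicted or unnamed genes. They also took in up to 4 called members of each of 42 gene lists (401 of 407 genes measured), or the first 2 where none was called, and Ccl2, Ccl7 and Ccl11. Further genes were named after their values were seen. The comparison and the lists were chosen with earlier results of these data known. Promoters came from RefSeq (GRCm38.p6). Alternatives covered background correction, normalisation, dim probes, probe choice, batch terms, the replicate number, the controls and each sample left out.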

Additional observations from a re-analysis of the deposited data

Results flagged for a closer look

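Among the 7 PBS controls, 10 of 102 named genes (9.8%) had a control sample far from the other 6, where chance alone marks about 1 in 20. In 6 of these genes it was control replicate 4, at 9.44 for Saa1 (next control 8.62), 8.08 for Ccl3 (7.42), 12.14 for Mt2 (11.60), 14.03 for Igfbp6 (14.23), 14.22 for Hopx (14.47) and 14.30 for Col1a2 (14.55). For Saa1, Ccl3 and Mt2 this control lay toward the exposed samples, and so it did for Igfbp6, which fell. Without it 220 called genes became 219. Control replicate 1 was at 8.15 for Hmox1 (next 9.87) and at 12.89 for S100a8 (next 12.35), and control replicate 6 at 9.52 for Muc5b (next 10.23) and 9.65 for Myh6 (next 11.26).

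The effect of CuO NH3 2.5 differed between ovalbumin-challenged and PBS-challenged mice by the tested difference for 6 genes, which was -3.70 for Saa1, -2.25 for Ccl17, -2.05 for Vnn1, -1.50 for Csf2, -1.11 for 5430437J10Rik and -0.95 for C1ra, with adjusted p-values between 0.0027 and 0.019.

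Probes without a gene in the reference were kept out of the main comparison. Of 23502 such probes 22 were called by the same rule (0.0936%), 15 higher and 7 lower, and the exposed samples lay beyond all controls for 15 of the higher and 2 of the lower ones.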

How the results depend on the processing

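For CuO NH3 2.5 against PBS, 220 genes were called. The count was 397 with dye, slide and array position as terms (161 shared with the 220), 485 with the array as a random block (167), 454 with no batch terms (153), 83 with controls of the same slides only (76) and 384 with only the 10 samples (155). Centring on the 75th percentile gave 50 calls (48 shared), all 50 rises, a split of 100% against 89.5%, and moved the median log2 fold change of all genes to -0.36. The medians of 5 of 42 lists turned sign there, from 0.14 to -0.11 (inflammasome), 0.04 to -0.24 (aryl hydrocarbon receptor targets), 0.28 to -0.14 (platelets), -0.17 to 0.00 (alveolar type 2) and -0.03 to 0.25 (fibroblasts). Leaving out 1 sample gave 57 to 249 calls, the lowest being 57 without exposed replicate 3, 69 without PBS control 5 and 92 without exposed replicate 1. Normexp, loess, dim probes left out, brightest probes and the deposited table gave 214 to 284.

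Replicate numbers do not pair these samples: deviations of same-numbered samples correlated at 0.27, -0.01 and -0.16, and they lay on different slides. With the replicate block and dye, 1382 genes were called (154 shared), and S100a8 (-0.77, adjusted p = 0.031) and Ccl11 (-0.89, adjusted p = 0.019) were called lower. The replicate block also gave 48 calls for 10 against 2.5 μg, 938 against CuO, 1089 against CuO COOH and 236 for the difference between challenges.

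For 10 against 2.5 μg there were 74 calls with dye, slide and position and 43 with the random block, against 0. Against CuO and CuO COOH the random block gave 791 and 1027, against 0. Against CuO PEG it gave 395 (370 shared with the 420), while dye and array as terms gave 433 (194 shared). The difference between challenges had 243 calls with dye, slide and position, 206 with the random block and 10 in the deposited table, and 0 to 22 with 1 sample left out (0 without CuO NH3 2.5 replicate 1 or the sample on its array, 2 without PBS control 3, 22 without OVA replicate 8, and 10 to 14 for the other samples that moved the count). The same gave 722 to 1679 for 40 against 2.5 μg (722 without replicate 3 of either dose) and 308 to 429 against CuO PEG. With array as a fixed term a sample alone on its array adds nothing, so leaving out either sample of an array gives the same fit. The cause of these shifts was otherwise not tested.

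Of 49 called named genes 0 changed sign under any of 22 settings and 11 were called under all of them, namely Saa3, Saa1, Ccl2, Ccl7, Cxcl1, Ccl17, Wfdc17, Mki67, Top2a, Rrm2 and Cd14. Mt2 was called in 20, Hmox1 in 15, Mt1 and C1qb in 9, Igfbp3 in 7 and Gpcpd1 in 3. Of 53 uncalled named genes 32 changed sign under some setting. Cxcl5, Mab21l3 and Nags were near background in some or all controls, which limits their fold changes. Of all called genes, 5 were well above background in no control and 4 in no exposed sample.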

Other observations

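Further genes among the rises were picked after their values were seen and are given as values. Foxn4, a transcription factor known from cells that build many cilia, was at 9.36, 9.51 and 9.33 against 7.21, 7.85 and 8.29 in the lowest, median and highest control and rose by 1.77 ± 0.31 (adjusted p = 0.0046). Ccno, needed for the multiplication of centrioles, rose by 1.33 ± 0.26 (adjusted p = 0.011) and Deup1, a scaffold of the same step, by 1.33 ± 0.31 (adjusted p = 0.038). The groups did not overlap for these 3 genes, which are no list and were given no test as a group. Mcidas, a regulator known from the same cells, was at -0.25 ± 0.14 (adjusted p = 0.50), and the 8 ciliated cell markers gave 0 calls (median 0.16).

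Of single genes whose products act in the endoplasmic reticulum, Sdf2l1 rose by 1.09 ± 0.24 (adjusted p = 0.024) and Manf by 0.84 ± 0.18 (adjusted p = 0.018), while the chaperone Hspa5 was at 0.69 ± 0.18 (adjusted p = 0.061). The single genes Clec4d (1.47 ± 0.26), Clec5a (1.16 ± 0.17) and Clec4n (0.84 ± 0.19), which encode C-type lectin receptors, Ctsk (1.01 ± 0.22) and Ctsc (0.97 ± 0.16), which encode cathepsins, and Cstb (0.88 ± 0.18), a cathepsin inhibitor, also rose, and other members of these families were not counted. Noxo1, an organiser of an NADPH oxidase, was at 11.01, 10.97 and 11.03 against 8.97, 9.20 and 9.45 and rose by 1.49 ± 0.29 (adjusted p = 0.010). Ch25h, which makes 25-hydroxycholesterol, rose by 1.97 ± 0.39 (adjusted p = 0.011) and the histidine-degrading enzyme Hal by 1.92 ± 0.34 (adjusted p = 0.0046).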
